A study of Mus musculus with 10 samples.

Results

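The cell cycle and mitotic spindle genes described here are 43 genes taken by gene symbol, with no cut on measured values, and all 43 were listed among the 16292 genes of the ameloblast table and the 16638 genes of the stratum intermedium table. They were divided into 15 S phase genes, 25 mitosis genes and 3 genes that act at the entry to or exit from the cycle. The S phase genes were Mcm2, Mcm3, Mcm4, Mcm5, Mcm6, Mcm7, Pcna, Rrm1, Rrm2, Tyms, Gins2, Cdc6, Cdt1, Ccne1 and Ccne2. The mitosis genes were Mki67, Top2a, Ccnb1, Ccnb2, Ccna2, Cdk1, Bub1, Bub1b, Aurka, Aurkb, Plk1, Cdc20, Cenpe, Cenpf, Kif11, Kif23, Kif20a, Tpx2, Birc5, Nusap1, Prc1, Ube2c, Fam83d, Ttk and Ndc80. The remaining members were the G1 cyclin gene Ccnd1 and the inhibitor genes Cdkn1a and Cdkn1c. Every member passed the filter on low values in both tables and entered every test.

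The tissue was the mouse enamel organ, an epithelium whose cells build the enamel of the tooth. Ameloblasts, which secrete and mature the enamel matrix, and the stratum intermedium, the layer of cells that backs them, were captured apart by laser from frozen sections of hemi-mandibles. In each layer there were 3 libraries of mice knocked out for claudin-10 (KO), a tight junction protein, and 2 libraries of wild type mice (WT), 10 libraries in all. The library names carry the prefixes KO1, KO3, KO9, WT10 and WT5 in both layers, and the libraries are called by these prefixes here. Strain, age, the deleted part of Cldn10 and which stretch of the tooth was captured were not stated in the sources used here, so secretory and maturation stages cannot be set apart. The labels do not say that the libraries are separate mice, and p-values describe only how these libraries vary, which may be technical variation.

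A dividing cell copies its DNA in S phase and separates the copies in mitosis. S phase needs licensed replication origins, a helicase to open the DNA and a supply of deoxynucleotides. Mitosis needs CDK1 with its B-type cyclins, kinetochores that hold chromosomes on spindle microtubules, a checkpoint that waits for attachment, and a midzone that guides division of the cytoplasm. Cyclin D1 with CDK4 and CDK6 drives passage through G1, and the inhibitors p21 (Cdkn1a) and p57 (Cdkn1c) oppose cyclin-dependent kinases in cells that leave the cycle. In the rodent incisor, dividing epithelial cells lie near the cervical loop, and ameloblasts leave the cycle as they differentiate.

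As background, S phase genes are known as targets of E2F factors that bind E2F letters, and mitosis genes as targets of the DREAM and B-MYB complexes, which bind the cell cycle homology region (CHR), and of FOXM1. RefSeq (GRCm38.p6) gave a window from 250 bases before to 50 bases after the start for 34 of the 43 members, namely 12 S phase genes, 21 mitosis genes and Cdkn1a. The CHR, searched as TTTGAA or TTCGAA on either strand, was in the window of 17 of 21 mitosis genes (81.0%) and 2 of 12 S phase genes (16.7%), against 21.7% of the 27025 genes in the promoter table. The E2F letters TTTCCCGC, TTTCGCGC, TTTGCCGC or TTTGGCGC, on either strand, were in 6 of 12 S phase genes (50%) and 1 of 21 mitosis genes (4.76%), against 2.6% of all genes. CCAAT, on either strand, was in 8 of 12 S phase genes (66.7%) and 18 of 21 mitosis genes (85.7%), against 41.1% of all genes. The window of Cdkn1a held none of these letters. TTCGAA is its own reverse complement, and E2F matches on opposite strands overlap each other in Mcm5 and Mcm6. A match describes letters only, and no binding was measured.

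The 160 bases before the RefSeq start are shown for 5 members, 5′ to 3′ on the strand of the gene, with every match in capitals, to show both kinds of promoter and that of Fam83d, the member with the smallest p in each layer. Cdk1 (chr10:69352913-69353072, minus strand) holds CHR letters 71 and 15 bases before the start and is the mitosis gene with E2F letters. Cdc20 (chr4:118437344-118437503, minus strand) has the compact arrangement of CCAAT and CHR near the start. Fam83d (chr2:158767939-158768098, plus strand) has 3 CCAAT boxes ahead of a CHR read on the opposite strand as TTCAAA. Mcm5 (chr8:75109349-75109508, plus strand) and Mcm6 (chr1:128359706-128359865, minus strand) hold E2F and CCAAT letters and no CHR.
Cdk1: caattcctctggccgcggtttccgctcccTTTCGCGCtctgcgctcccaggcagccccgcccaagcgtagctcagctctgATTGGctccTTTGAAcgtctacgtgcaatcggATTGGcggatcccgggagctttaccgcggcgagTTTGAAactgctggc
Cdc20: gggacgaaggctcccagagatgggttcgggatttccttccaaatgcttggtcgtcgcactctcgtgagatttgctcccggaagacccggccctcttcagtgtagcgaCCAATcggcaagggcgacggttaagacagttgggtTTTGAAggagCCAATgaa
Fam83d: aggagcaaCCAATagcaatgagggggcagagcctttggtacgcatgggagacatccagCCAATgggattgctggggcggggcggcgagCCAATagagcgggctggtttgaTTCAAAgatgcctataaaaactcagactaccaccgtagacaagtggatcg
Mcm5: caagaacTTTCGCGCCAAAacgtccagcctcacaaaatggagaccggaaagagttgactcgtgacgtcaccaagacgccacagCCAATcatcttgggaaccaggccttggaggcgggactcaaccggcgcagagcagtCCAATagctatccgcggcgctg
Mcm6: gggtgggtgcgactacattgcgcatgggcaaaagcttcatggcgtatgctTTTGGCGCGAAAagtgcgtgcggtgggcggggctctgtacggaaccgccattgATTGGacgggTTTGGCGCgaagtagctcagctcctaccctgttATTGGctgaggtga

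Total normalized counts lay between 22135034 and 26856177 in ameloblast libraries, and between 21006977 and 24053340 in those of the stratum intermedium. Cldn10 was 280.1, 407.8 and 148.7 normalized counts in ameloblasts of KO1, KO3 and KO9, against 600.1 and 751.8 in WT10 and WT5, and in the stratum intermedium 1003, 387.1 and 464.7 in KO against 7257 and 2365 in WT, so every KO library was below every WT library. WT10 listed the most genes at 0, with 706 in ameloblasts and 854 in the stratum intermedium. Libraries KO1 and KO3 carried Xist, and KO9, WT10 and WT5 carried Y-linked Ddx3y, so sex was not balanced over genotype. The captures were not pure: all 8 odontoblast and pulp marker genes and all 8 osteoclast marker genes were listed in both layers. Odontoblast and pulp markers summed to 1002961 to 1402021 normalized counts in ameloblast libraries and 505529 to 1521524 in those of the stratum intermedium. Ameloblast markers summed to 481562 to 2449153 and 26517 to 226593, and stratum intermedium markers to 18915 to 46312 and 35088 to 87415. Sums over lists of different genes do not give shares of cells. Klk4, Sfrp5, Mb, Tcap and Myh4 were listed at 0 in at least 1 ameloblast library, and Adgre1 in at least 1 stratum intermedium library. Of 7 ameloblast markers, 4 were higher in ameloblasts in every prefix, whereas 0 of 8 stratum intermedium markers were lower in ameloblasts in every prefix. The ameloblast sum of the stratum intermedium markers was 0.53, 1.19 and 0.743 of their stratum intermedium sum in KO1, KO3 and KO9, and 0.244 and 0.606 in WT10 and WT5. That list as a sum was thus lower in ameloblasts except in KO3, but no gene of it set the stratum intermedium label apart in every prefix.

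Most mitosis genes and most S phase genes had lower values in ameloblasts than in the stratum intermedium. The tables were normalized separately, so this is a description without a test: for each prefix the ameloblast minus stratum intermedium log2 difference was taken and the median over 15567 shared genes (-0.11 to -0.17) subtracted. Of 25 mitosis genes, 19 were lower in ameloblasts in all 5 prefixes, with a median over genes of -1.45, or 2.74-fold more in the stratum intermedium. Of 15 S phase genes, 11 were lower in all 5, with a median of -0.96, or 1.95-fold. Over all shared genes, 9.96% were lower in ameloblasts in all 5 prefixes and 11.1% higher in all 5. In bulk captures, fewer dividing cells and less RNA per dividing cell cannot be told apart.

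**Figure D1:**
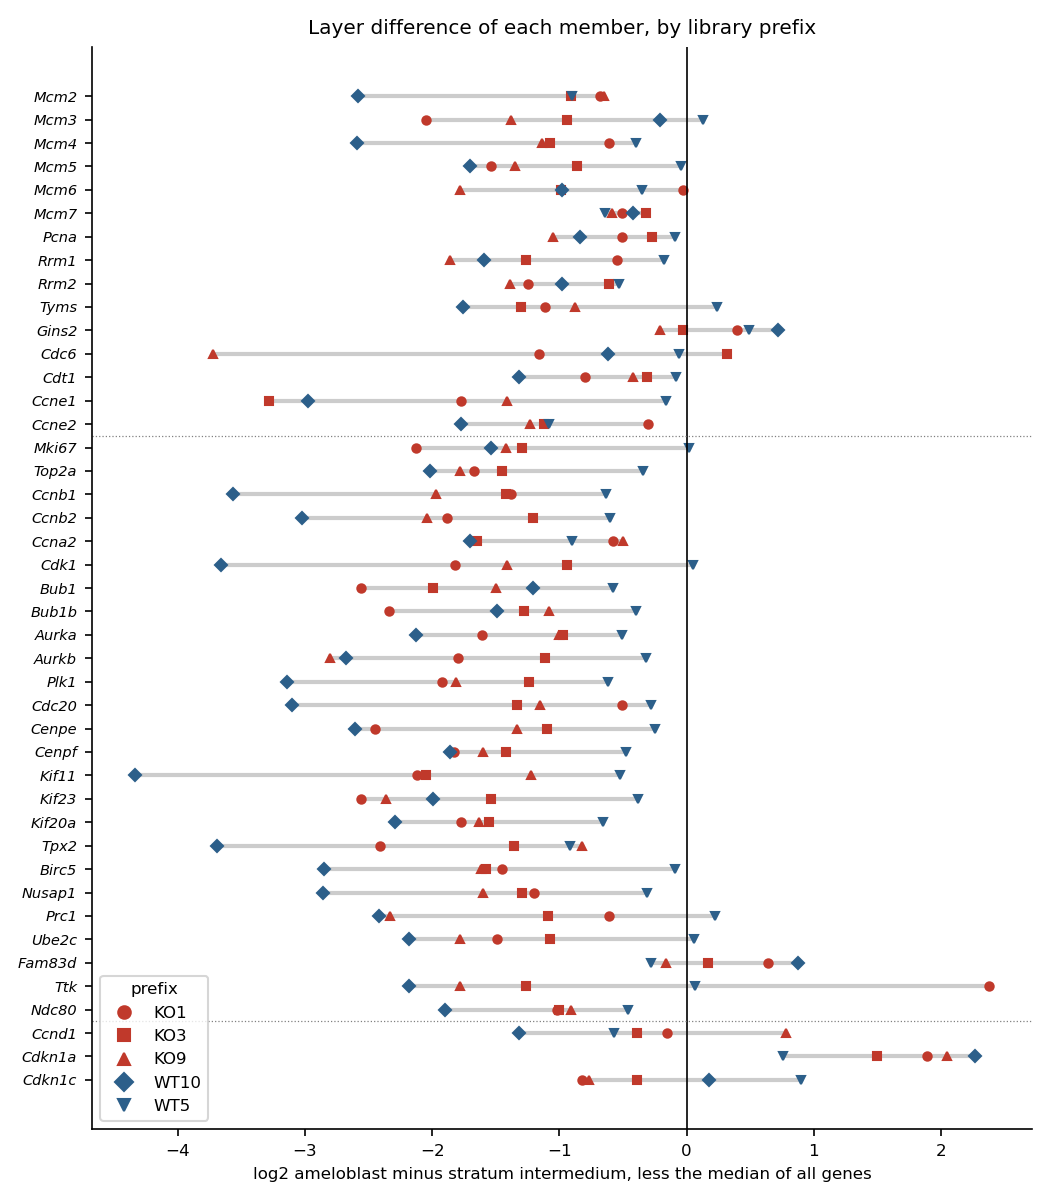
Ameloblast (AM) minus stratum intermedium (SI) log2 difference of normalized counts, centred on all shared genes, for each member and prefix. Symbols mark the prefix, KO in red and WT in blue, grey lines join the lowest and highest prefix, and dotted lines part S phase, mitosis and the other members. All 5 points lie below 0 for 19 of 25 mitosis genes and 11 of 15 S phase genes, and WT5 is often the point nearest to 0.

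Kinesin-5 (Kif11), which pushes spindle poles apart, had the widest gap among mitosis genes, followed by Tpx2 and Ccnb1 (named for these gaps after their values were seen). It had centred differences of -2.12, -2.05 and -1.22 in KO1, KO3 and KO9 and -4.34 and -0.52 in WT10 and WT5. Tpx2, which activates Aurora A on the spindle, was at -2.41, -1.36 and -0.82 in KO and -3.69 and -0.92 in WT. Ccnb1, the cyclin partner of CDK1, was at -1.38, -1.42 and -1.97 in KO and -3.57 and -0.63 in WT. In each of these 3 genes WT10 was the lowest prefix. Among S phase genes Ccne1, the cyclin E gene that acts at the entry to S phase, had the widest gap, -1.77, -3.28 and -1.41 in KO and -2.98 and -0.16 in WT.

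Gins2, a subunit of the replicative helicase, averaged 0.27 higher in ameloblasts, and Fam83d, which places casein kinase 1 on the spindle, averaged 0.25 higher, each with 2 of 5 prefixes below 0. Ttk, the checkpoint kinase MPS1, was at 2.38 in KO1 and -1.26 and -1.78 in KO3 and KO9, against -2.18 in WT10 and 0.07 in WT5. Its stratum intermedium value in KO1 was only 14.3 normalized counts. The other S phase and mitosis members not lower in all 5 prefixes, which were Mcm3, Tyms, Cdc6, Mki67, Cdk1, Prc1 and Ube2c, each had 1 prefix above 0. Of the G1 cyclin and inhibitor members, Ccnd1 was above 0 in 1 prefix, Cdkn1c in 2 and Cdkn1a in 5.

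Leaving out any 1 prefix gave medians of -1.27 to -1.74 for mitosis genes and -0.80 to -1.15 for S phase genes. The counts lower in all remaining prefixes were 19 to 23 and 11 to 13. Such a count cannot fall when a prefix is left out, so it is no check. Without centring the counts over all 5 prefixes were 22 and 12. Some lists of other cell type markers also had lower values in ameloblasts, where 9.96% of all shared genes were lower in every prefix. Odontoblast and pulp markers went the other way, with 4 of 8 higher in every prefix (11.1% of all shared genes) and a median of 0.73. Osteoclast, macrophage and red blood cell markers had 0 genes in either direction in every prefix. Of 6 endothelial markers, 5 were lower in ameloblasts in every prefix. Their ameloblast sum was 0.311, 0.382 and 0.287 of the stratum intermedium sum in KO1, KO3 and KO9, and 0.182 and 0.673 in WT10 and WT5. Skeletal muscle markers had 1 of 8 lower in every prefix, with a median of -1.14, or 2.2-fold more in the stratum intermedium. Dental epithelial stem and progenitor markers had 3 of 8 lower in every prefix and 1 higher, with gene means from -3.5 to 1.76. Their ameloblast sums were at 0.521, 0.711 and 0.797 of those of the stratum intermedium in KO and 0.512 and 0.815 in WT. Fibroblast markers also had 3 of 8 lower, with sums at 0.703, 0.678 and 0.565 in KO and 0.709 and 0.847 in WT. Ameloblast markers were 14.2, 8.53 and 18.2 times their stratum intermedium sum in KO and 11 and 2.65 times in WT, so WT5, the prefix with the smallest layer difference in cell cycle genes, also had the smallest in ameloblast markers. The part of these other cells in the layer difference was not tested.

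Summed over its 25 genes, the mitosis class was 7567, 11776 and 15214 normalized counts in ameloblasts of KO1, KO3 and KO9, against 6956 and 15271 in WT10 and WT5. Stratum intermedium sums were 23461, 31272 and 48549 in KO and 36937 and 21285 in WT. The S phase class was 6461, 8056 and 7689 in KO ameloblasts and 6738 and 9950 in WT ameloblasts, and 10780, 14712 and 18787 in KO stratum intermedium and 13800 and 12807 in WT stratum intermedium. KO and WT ranges overlapped in all of these. The mitosis sum divided by the S phase sum, which does not depend on library scaling, was 1.17, 1.46 and 1.98 in KO ameloblasts and 1.03 and 1.53 in WT ameloblasts, and 2.18, 2.13 and 2.58 in KO stratum intermedium and 2.68 and 1.66 in WT stratum intermedium. The ratio was higher in the stratum intermedium in all 5 prefixes.

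**Figure D2:**
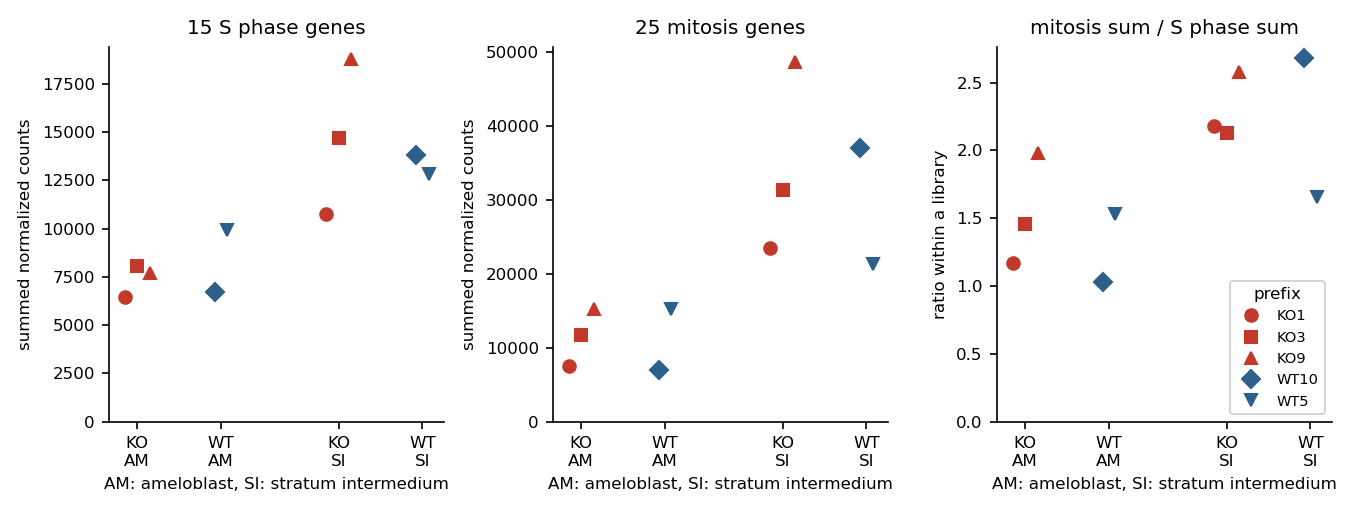
Sums of normalized counts over the S phase and mitosis classes, and the mitosis sum divided by the S phase sum, 1 point per library, for KO (red) and WT (blue) in ameloblasts (AM) and stratum intermedium (SI), with axes from 0. The mitosis sums of the stratum intermedium run from 21285 to 48549 and those of ameloblasts from 6956 to 15271.

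Levels per kilobase of exon were highest for the inhibitors. Cdkn1c had 1540 normalized counts per kb in ameloblasts and 1722 in the stratum intermedium. Cdkn1a had 12173 normalized counts per kb in ameloblasts and 3923 in the stratum intermedium, while S phase genes ran from 10.4 (Cdc6, which loads the helicase) to 650 (Pcna, the sliding clamp) in ameloblasts and from 22.3 to 1062 in the stratum intermedium. Mitosis genes ran from 19.4 (Ttk) to 314 (Ccnb2) in ameloblasts and from 45.8 to 1158 in the stratum intermedium. Cdkn1a (ENSMUSG00000023067, chromosome 17, 29090976 to 29100727, GRCm38) was the member with the opposite layer pattern. It was 51536, 39538 and 32841 normalized counts in KO ameloblasts and 71612 and 20732 in WT ameloblasts, and 15429, 15538 and 8920 in KO stratum intermedium and 16033 and 13771 in WT stratum intermedium. The centred difference was 1.69 on the log2 scale on average (0.76 to 2.27), 3.24-fold more in ameloblasts, in all 5 prefixes. Divided by Cdk1 in the same library, Cdkn1a was 151, 58.7 and 37.7 in KO ameloblasts and 516 and 18.0 in WT ameloblasts, and 11.5, 10.8 and 3.41 in KO stratum intermedium and 8.41 and 11 in WT stratum intermedium, so the ratio was higher in ameloblasts in each prefix.

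KO minus WT was tested in each layer with limma on log2(normalized count + 1), with p-values adjusted over all genes. No member passed an adjusted p of 0.05 in ameloblasts, in the stratum intermedium or in the test of the difference between layers, and neither did any other gene (0% in each; smallest adjusted p in limma 0.989, 0.404 and 0.836). At an unadjusted p under 0.05, 1 member was called in ameloblasts, 2 in the stratum intermedium and 3 in the layer test, against 498, 340 and 802 of all genes tested (3.07%, 2.06% and 5.15%). The share of members was below the background in ameloblasts and above it in the stratum intermedium and the layer test, on counts of 2 and 3 genes. In ameloblasts 4 of 43 members had no overlap between KO and WT (2 above, 2 below), against 18.4% of all genes (9.09% above, 9.26% below). For the stratum intermedium the count was 3 (2 above, 1 below), against 15.2% of all genes (7.76% above, 7.44% below), and in the layer test it was 6 (2 above, 4 below), against 22.4% (10.9% above, 11.5% below). These counts are at or under the background. The values that follow are therefore descriptions of members that did not pass the threshold.

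**Figure D3:**
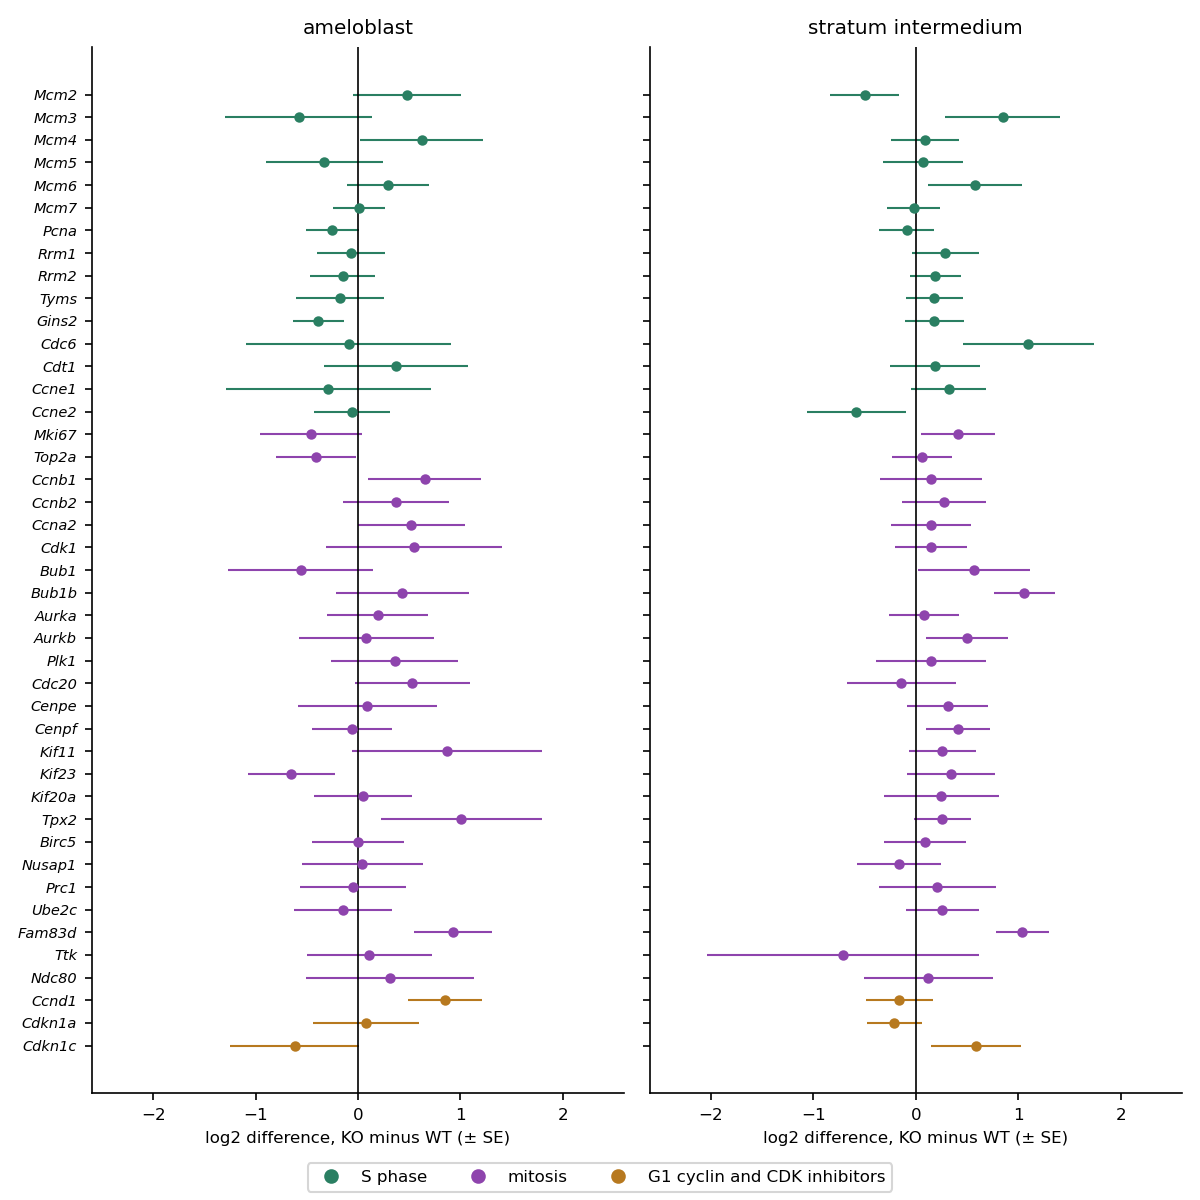
KO minus WT log2 difference of each member in ameloblasts and stratum intermedium, with standard errors from limma. Points are coloured by class and bars are ± 1 SE. In the stratum intermedium 22 of 25 mitosis points lie above 0, and Fam83d is at 0.93 in ameloblasts and 1.04 in the stratum intermedium.

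In ameloblasts the S phase class had 5 genes higher and 10 lower in KO, with a median of -0.09, and the mitosis class had 17 higher and 8 lower, with a median of 0.11, against a median of 0.04 over all genes, of which 53% were higher. In the stratum intermedium the S phase class had 11 higher and 4 lower (median 0.18) and the mitosis class 22 higher and 3 lower (median 0.25), against 0.02 over all genes and 51.9% higher. The class medians differed between libraries with an SD of 0.33 for S phase and 0.55 for mitosis in the stratum intermedium, and of 0.44 and 0.73 in ameloblasts, so none of the class differences was larger than the spread between libraries. The mitosis median in the stratum intermedium was 0.9 with sex as a covariate, where KO9 is the only KO prefix of the WT prefixes' sex, and the S phase median was 0.59. With the library group number of the library names as a block they were 0.52 and 0.39, and in ameloblasts 0.53 and 0.05. KO1 is the only prefix of its library group, so this block gave the same medians as leaving KO1 out. Without 1 library the stratum intermedium medians ran from -0.17 to 0.68 for mitosis and from 0.00 to 0.39 for S phase. In the layer by genotype test, S phase had 5 genes higher and 10 lower (median -0.35) and mitosis 12 higher and 13 lower (median -0.09), where 50.4% of all genes were higher.

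Fam83d (ENSMUSG00000027654, chromosome 2, 158768093 to 158786637, GRCm38) was the member with the smallest p in both layers. In ameloblasts it was 1062, 794.2 and 770.0 normalized counts in KO1, KO3 and KO9, against 654.2 and 312.8 in WT10 and WT5. Stratum intermedium values were 755.8, 784.5 and 973.1 in KO, against 382.0 and 429.5 in WT. Every KO library was above every WT library in both layers, as in 0.764% of all genes (119 of 15567), and Fam83d was the member of the 43 that met this. Means were 875.4 ± 162 in KO and 483.5 ± 241 in WT ameloblasts, and 837.8 ± 118 in KO and 405.7 ± 33.6 in WT stratum intermedium (SD, n = 3 and 2). The log2 differences were 0.93 (SE 0.38, unadjusted p = 0.0427 in limma) and 1.04 (SE 0.26, unadjusted p = 0.00508 in limma). Without WT replicate 2 (WT5) the ameloblast difference was 0.40 (unadjusted p = 0.264 in limma). Without WT replicate 1 (WT10) it was 1.47 (unadjusted p = 0.0051 in limma). With the library group as a block the ameloblast difference was 0.79 (unadjusted p = 0.0832 in limma), and in the stratum intermedium 1.11 (unadjusted p = 0.00826 in limma). The difference between layers was -0.10 (SE 0.46, unadjusted p = 0.829 in limma).

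Bub1b, which encodes the checkpoint kinase BUBR1, passed the unadjusted threshold in the stratum intermedium, and its layer by genotype difference was -0.64 (SE 0.59, unadjusted p = 0.32 in limma). It was 445.7, 582.6 and 582.3 in KO, against 244.4 and 264.7 in WT, with a log2 difference of 1.06 (SE 0.30, unadjusted p = 0.0092 in limma). In ameloblasts it was 78.9, 214.7 and 244.0 in KO, against 80.0 and 177.1 in WT, so the groups overlapped there. Its gene lies on chromosome 2, 118598211 to 118641591.

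**Figure D4:**
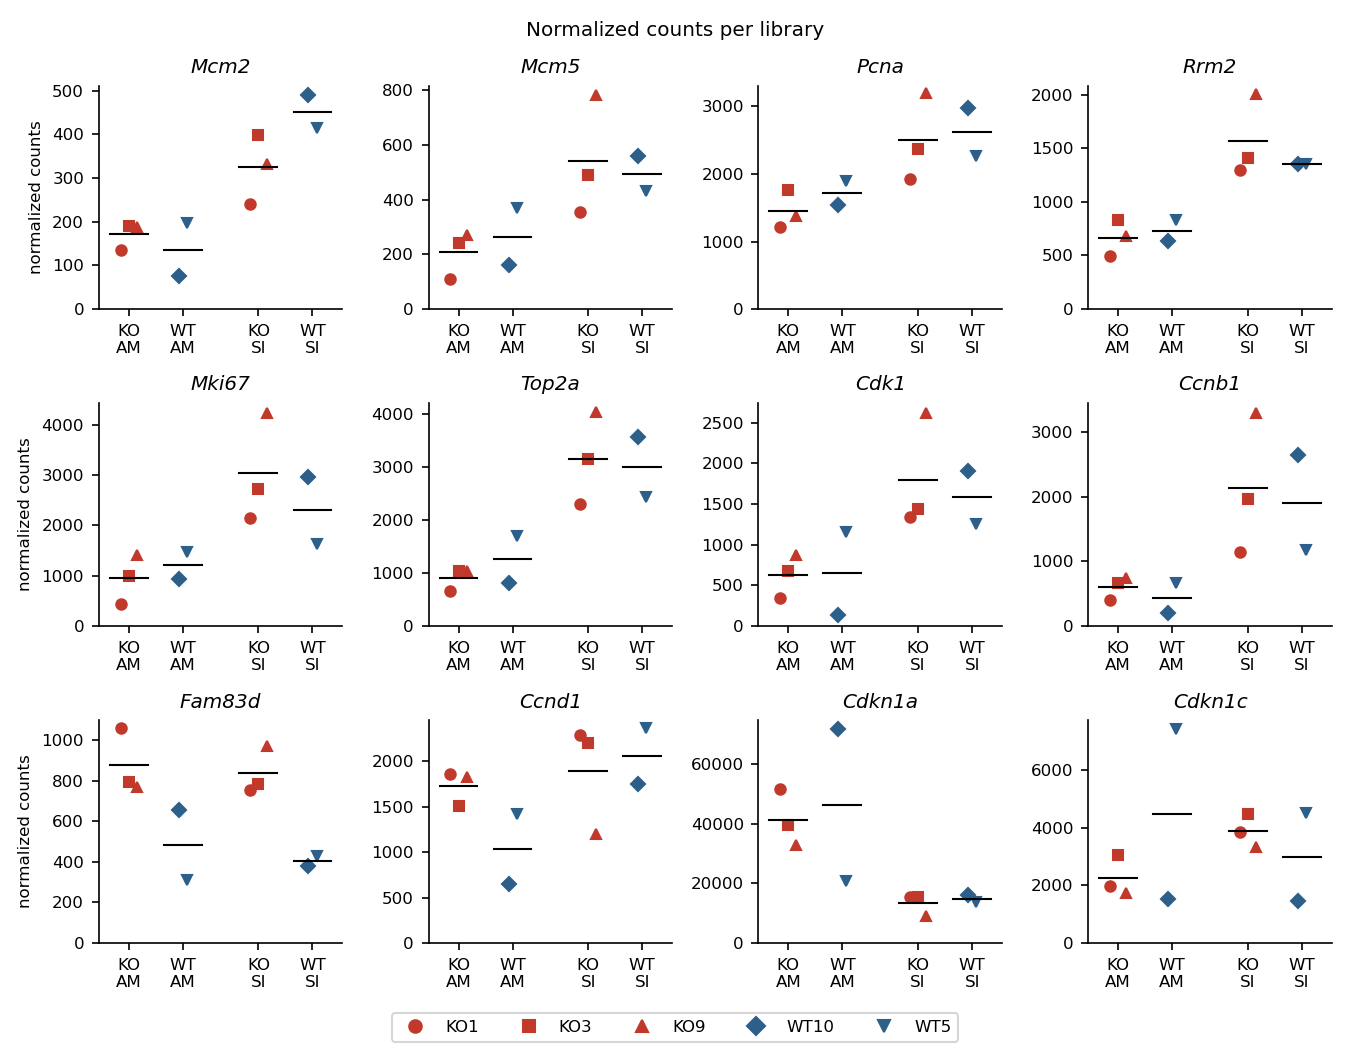
Normalized counts of selected members in each library, KO and WT in ameloblasts (AM) and stratum intermedium (SI), on axes from 0, with the black bar at the group mean and symbols for the prefix. All KO points of Fam83d lie above all WT points of the same layer, whereas those of Mki67 and Top2a overlap.

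Among the cell cycle genes shown for their roles, KO and WT libraries of each layer overlapped throughout, apart from Ccnd1 in ameloblasts and Mcm2 in the stratum intermedium. Mki67, which encodes the Ki-67 protein coating mitotic chromosomes, was 444.2, 996.7 and 1408 in KO ameloblasts and 943.7 and 1471 in WT ameloblasts, and 2158, 2727 and 4246 in KO stratum intermedium and 2963 and 1633 in WT stratum intermedium. Top2a, topoisomerase II alpha, which untangles DNA copies, was 653.7, 1035 and 1045 in KO ameloblasts and 820.8 and 1707 in WT ameloblasts, and 2296, 3153 and 4043 in KO stratum intermedium and 3578 and 2439 in WT stratum intermedium. In ameloblasts, KO1 was lowest of the KO libraries for both genes. Cdk1, the mitotic kinase, was 341.2, 673.6 and 872.0 in KO ameloblasts and 138.9 and 1153 in WT ameloblasts, and 1340, 1441 and 2618 in KO stratum intermedium and 1907 and 1254 in WT stratum intermedium. Ccnb1 was 397.9, 660.7 and 747.2 in KO ameloblasts and 205.5 and 669.8 in WT ameloblasts, and 1144, 1972 and 3299 in KO stratum intermedium and 2648 and 1174 in WT stratum intermedium. In the stratum intermedium KO9 was the highest library for each of these mitosis genes, and in ameloblasts WT10 was lowest for Cdk1 and Ccnb1.

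Of the helicase subunits, Mcm2 was 136.2, 189.4 and 187.2 in KO ameloblasts and 75.0 and 196.0 in WT ameloblasts. In the stratum intermedium it was 241.6, 398.9 and 332.4 in KO and 490.1 and 414.0 in WT, every KO library below every WT library, with a log2 difference of -0.50 (SE 0.34, unadjusted p = 0.186 in limma). Mcm5 was 109.4, 242.2 and 271.1 in KO ameloblasts and 159.5 and 370.0 in WT ameloblasts, and 353.0, 491.5 and 782.0 in KO stratum intermedium and 560.0 and 430.1 in WT stratum intermedium. KO and WT overlapped for Mcm5 in both layers. Pcna was 1219, 1767 and 1374 in KO ameloblasts and 1547 and 1892 in WT ameloblasts, and 1920, 2368 and 3204 in KO stratum intermedium and 2976 and 2271 in WT stratum intermedium. Rrm2, which makes deoxynucleotides, was 493.3, 828.5 and 677.1 in KO ameloblasts and 635.8 and 826.4 in WT ameloblasts, and 1302, 1406 and 2006 in KO stratum intermedium and 1350 and 1349 in WT stratum intermedium. Rrm2 and Pcna had log2 differences within 0.25 of 0 in both layers, with standard errors of 0.25 to 0.32.

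KO and WT libraries overlapped in both layers for Mcm6, Mcm7, Rrm1, Tyms, Cdt1, Ccne1 and Ccne2. Helicase genes Mcm6 and Mcm7 had KO minus WT log2 differences of 0.29 and 0.01 in ameloblasts and 0.58 and -0.02 in the stratum intermedium. Mcm7 varied little between libraries, with 656.1, 736.3 and 820.9 in KO ameloblasts and 692.1 and 764.6 in WT ameloblasts. Rrm1, the partner of Rrm2, and Tyms, which makes thymidylate, had -0.07 and -0.18 in ameloblasts and 0.29 and 0.18 in the stratum intermedium. The licensing factor gene Cdt1 had 0.37 in ameloblasts and 0.19 in the stratum intermedium, and the cyclin E genes Ccne1 and Ccne2 had -0.29 and -0.06 in ameloblasts and 0.32 and -0.58 in the stratum intermedium. Ccne1 was low and uneven in ameloblasts, at 68.1, 26.0 and 143.4 in KO and 32.3 and 185.1 in WT.

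Plk1, Aurka, Aurkb, Ccnb2, Ccna2 and Birc5 also overlapped between KO and WT in both layers. Plk1, which acts from mitotic entry to exit, was 105.3, 243.0 and 331.8 in KO ameloblasts and 104.3 and 242.4 in WT ameloblasts, and 444.9, 640.2 and 1313 in KO stratum intermedium and 997.0 and 420.8 in WT stratum intermedium. KO9 was the highest library for Plk1 in both layers. Aurka, the kinase of spindle poles, had log2 differences of 0.19 in ameloblasts and 0.08 in the stratum intermedium, and Aurkb, the kinase of the chromosomal passenger complex, 0.08 and 0.50. Ccnb2 and Ccna2, B- and A-type cyclin genes, had 0.37 and 0.52 in ameloblasts and 0.28 and 0.15 in the stratum intermedium. Birc5, which encodes survivin of the same passenger complex, was at 0.00 and 0.09.

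Ndc80, which grips microtubules at the kinetochore, had 0.31 (SE 0.82) in ameloblasts and 0.12 (SE 0.63) in the stratum intermedium, and Cenpe, the kinetochore kinesin, 0.09 (SE 0.68) and 0.31 (SE 0.40). Kif11 had 0.87 (SE 0.93) in ameloblasts, where WT10 stood at 45.8 against 416.1 in WT5, and 0.26 (SE 0.33) in the stratum intermedium. Nusap1, a spindle microtubule bundler, had 0.04 and -0.16, and the midzone genes Prc1 and Kif20a had -0.05 and 0.05 in ameloblasts and 0.21 and 0.25 in the stratum intermedium. Cdc20 and Ube2c, which serve the anaphase promoting complex, had 0.53 and -0.15 in ameloblasts and -0.14 and 0.26 in the stratum intermedium. Ttk had 0.11 (SE 0.61) in ameloblasts and -0.71 (SE 1.33) in the stratum intermedium, where KO1 stood far below the other libraries.

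In ameloblasts Gins2 was 1088, 1075 and 1258 in KO and 1748 and 1268 in WT, every KO below every WT (log2 -0.39, SE 0.25, unadjusted p = 0.166 in limma). Kif23, the kinesin of the spindle midzone, was 118.0, 185.2 and 205.2 in KO and 223.1 and 299.9 in WT, also without overlap (-0.65, SE 0.42, unadjusted p = 0.169 in limma). Tpx2 was 196.4, 385.3 and 810.2 in KO and 91.5 and 416.4 in WT, and Mcm4 was 334.6, 457.3 and 419.6 in KO and 125.1 and 536.2 in WT, both with WT10 lowest and the groups overlapping.

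In the stratum intermedium, Cdc6 was 126.2, 91.2 and 229.0 in KO and 43.0 and 94.6 in WT (log2 1.10, SE 0.64, unadjusted p = 0.128 in limma). Mcm3 was 524.4, 542.4 and 529.8 in KO and 146.0 and 595.9 in WT, so the WT libraries lay on either side of the KO libraries and the difference of 0.85 (SE 0.56) was -0.16 without WT10. Cenpf, a kinetochore and centromere protein gene, was 2034, 1892 and 3373 in KO and 2124 and 1480 in WT, with overlap.

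Among members, Cdkn1c had the smallest p in the test of the difference between layers. Cdkn1c (ENSMUSG00000037664, chromosome 7, 143458339 to 143461050, GRCm38) was 1965, 3057 and 1731 in KO ameloblasts and 1517 and 7432 in WT ameloblasts. Stratum intermedium values were 3837, 4464 and 3318 in KO and 1448 and 4491 in WT. Its centred layer differences were -0.82, -0.39 and -0.77 in KO and 0.18 and 0.90 in WT, without overlap, and the layer by genotype difference was -1.21 (SE 0.28, unadjusted p = 0.00311 in limma, adjusted 0.836). It was -0.88 to -1.54 when a prefix was left out. Ccnd1 was 1860, 1506 and 1829 in KO ameloblasts and 646.9 and 1419 in WT ameloblasts, every KO above every WT (log2 0.85, SE 0.36, unadjusted p = 0.0508 in limma), and the difference was 0.28 without WT10. Its stratum intermedium values were 2288, 2200 and 1196 in KO and 1747 and 2368 in WT, and its layer by genotype difference was 1.01 (SE 0.40, unadjusted p = 0.0404 in limma), or 0.66 to 1.35 with a prefix left out.

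Of the remaining layer by genotype differences, Mcm3 had -1.43 (SE 0.48, unadjusted p = 0.0204 in limma), from centred layer differences of -2.05, -0.94 and -1.38 in KO and -0.21 and 0.13 in WT. In ameloblasts Mcm3 was 113.6, 253.2 and 179.5 in KO and 116.6 and 577.3 in WT. Bub1, the checkpoint kinase gene, had -2.56, -1.99 and -1.50 in KO and -1.21 and -0.58 in WT, and a difference of -1.14 (SE 0.55, unadjusted p = 0.0743 in limma). Its values were 56.7, 68.3 and 224.2 in KO ameloblasts and 195.2 and 102.8 in WT ameloblasts, and 373.7, 306.3 and 717.0 in KO stratum intermedium and 488.1 and 173.9 in WT stratum intermedium. Gins2 had -0.56, Mki67 -0.87, Kif23 -0.99 and Mcm2 0.98, with unadjusted limma p between 0.0937 and 0.142. When 1 prefix was left out Mki67 ran from -1.62 to -0.12, Kif23 from -1.76 to -0.21, Mcm2 from 0.17 to 1.79 and Gins2 from -0.74 to -0.42. The mitosis median of this layer by genotype difference was -1.12 without WT10 and 0.89 without WT5, so it depended on the WT prefix left out.

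Other genes of the cycle that were not members were counted in the same way. Of 51 other mitosis genes, 34 were lower in ameloblasts in every prefix and 1 higher, with a median of -1.28. Over all shared genes, 9.96% were lower in every prefix and 11.1% higher. The gene that was higher was Lmnb1, a nuclear lamina gene named after its values were seen, with a centred mean of 1.12. Of 35 other replication genes listed in both tables, 18 were lower in every prefix, with a median of -0.70. Of 21 genes of G1 cyclins, CDKs, RB and E2F, 4 were lower and 1 higher, which was Rb1 with a centred mean of 1.67, and of 16 other CDK inhibitors and p53 targets, 1 was lower and 4 were higher, with a median of 0.06. The higher p53 target genes were Gadd45a, Btg2, Bax and Aen, named like Rb1 after their values were seen. In the G1 list and the p53 list the counts rest on 1 to 4 genes.

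For KO minus WT, other replication genes had 15 higher and 20 lower in ameloblasts and 17 higher and 19 lower in the stratum intermedium. Other mitosis genes had 27 higher and 24 lower in ameloblasts and 35 higher and 16 lower in the stratum intermedium. Over all genes tested, 53% were higher in ameloblasts and 51.9% in the stratum intermedium. None passed an adjusted p of 0.05. Timeless, which protects replication forks, was 50, 237.9 and 194.2 in KO ameloblasts and 375.7 and 499.0 in WT ameloblasts (log2 -1.70, SE 0.69, unadjusted p = 0.0438 in limma). Cdca2, which recruits protein phosphatase 1 to chromosomes late in mitosis, was 565.1, 797.8 and 818.4 in KO stratum intermedium and 399.2 and 465.0 in WT stratum intermedium (log2 0.73, SE 0.29, unadjusted p = 0.0378 in limma), and in ameloblasts 335.3, 254.6 and 347.6 in KO and 183.4 and 206.4 in WT. Cdca2 was above every WT library in every KO library of both layers, as in 0.764% of all genes (119 of 15567). It was named among 51 other mitosis genes for its small p. Rfc5, a clamp loader subunit, had 981.3, 942.3 and 1103 in KO stratum intermedium and 641.9 and 711.4 in WT, and Chaf1b, a histone chaperone subunit, had 318.9, 685.7 and 509.6 in KO and 858.9 and 889.7 in WT.

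Markers of other cells were summed in each genotype, without a test of the sums. In ameloblasts, KO and WT sums overlapped for ameloblast, stem and progenitor, odontoblast and pulp, fibroblast, macrophage and endothelial markers. Stratum intermedium markers summed to 28188 to 46312 in KO ameloblasts and 18915 to 21252 in WT ameloblasts, without overlap. Of these 8 genes, 7 were higher in KO and 4 had every KO above every WT, against 53% and 9.09% of all genes. In stratum intermedium captures their sums were 36584 to 87415 in KO and 35088 to 77365 in WT. Osteoclast markers summed to 27953 to 101792 in KO ameloblasts and 84516 to 172292 in WT ameloblasts. Of these 8 genes, 8 were lower in KO and 1 had every KO below every WT. Red blood cell markers summed to 21228 to 34795 in KO ameloblasts and 59910 to 289839 in WT ameloblasts, also without overlap. Of 6 red blood cell genes tested, 6 were lower in KO and 5 had every KO below every WT. Over all 16212 genes tested, 7626 were lower and 9.26% had every KO below every WT. Skeletal muscle markers, whose sums overlapped as those of osteoclasts did, summed to 13142 to 66850 in KO ameloblasts and 3889 to 71765 in WT ameloblasts. Of these 8 muscle genes, 8 were higher in KO and 1 had every KO above every WT. The part of these cells in the differences of cell cycle genes was not tested. In the annotation 12 members overlap another gene (Mcm7, Gins2, Cdt1, Ccne2, Ccna2, Cdc20, Kif20a, Nusap1, Prc1, Ube2c, Ccnd1 and Cdkn1c). How strand was counted was not stated, so reads of the overlapping gene may be included.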

How the data were processed

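RNA was measured by RNA-seq in 10 libraries. The authors deposited a table of DESeq2 normalized counts for each layer, per the labels, treated here as signal values. The submitters' processing notes name the build GRCm38, STAR 2.5.2b, Picard 2.8.1, FastQC, DESeq and featureCounts, without settings. The tables were normalized separately. Every gene listed had at least 10 in at least 3 libraries. Genes below this were not analysed here, and whole reads could not be recovered, so depth is unknown and no counting error was given.

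Columns were matched to samples by library name, and 0 columns of per-sample values were left unused. Genes averaging 10 or more were tested two-sided on log2(normalized count + 1) with limma 3.58.1 and its trend option in R 4.3.3, with Benjamini-Hochberg adjustment over all genes and a threshold of 0.05. The layer by genotype test used, per prefix, the ameloblast log2 value less that of the stratum intermedium. Prefixes pair the layers: libraries of the same prefix deviated together from their group means (r = 0.201 to 0.311 over 15567 genes), which is the ground for the pairing. The r of WT10 and WT5 is the same value (0.311), since 2 libraries deviate from their mean in mirror image. Each prefix also has the same library group number in both layers, so a shared mouse and a shared group cannot be told apart. Motifs were searched in RefSeq promoter windows, and gene positions, exon lengths and overlaps came from GENCODE M21. Python 3.11.15 with matplotlib 3.10.9 drew the figures, and limma was tested on simulated data. Alternatives were pseudocounts of 0.5 and 8, other filters and scalings, library weights, replicate number, library group or sex in the fit, an adjusted p threshold of 0.1 and leaving out each library.

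The members and lists were chosen with earlier results of these data known. Values are given for Mki67, Top2a, Cdk1, Ccnb1, Mcm2, Mcm5, Pcna, Rrm2, Ccnd1, Cdkn1a and Cdkn1c for their role, for the 3 members of each class with the smallest p in each test, and for genes of each pathway list among its 3 smallest p.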

Additional observations from a re-analysis of the deposited data

How the results depend on the processing

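Over 66 results and 948 alternatives, 873 values were labelled the same, 22 moved and 53 changed sign, by rules that differ between kinds of result. Sign changes were counted for single genes only. Class medians were labelled moved only when they changed by at least the spread, so medians that changed sign within the spread are among the 873. Counts of genes were labelled moved when they changed by more than a set factor, or to or from 0. An adjusted p under 0.05 was reached by 0 genes in each layer and in the layer by genotype test with every alternative that kept both WT prefixes. The threshold of 0.1 was applied to the main fits only, and 0 genes reached it. Where 1 WT prefix was left out, the lone WT prefix is assumed to vary like the KO prefixes, so genes passing are not counted. Without WT5 the layer by genotype difference of Tcap was 8.1. Tcap is a muscle gene and no member, named after its value was seen. The replicate numbers in the titles did not pair KO with WT libraries (r = 0.0862 and -0.116 in ameloblasts, -0.186 and -0.133 in the stratum intermedium). With the replicate block, 0 members were called at an unadjusted p under 0.05 in the stratum intermedium against 2 without it, with Fam83d at 0.93 (unadjusted p = 0.0527 in limma) and Bub1b at 1.00 (unadjusted p = 0.0686 in limma), and the mitosis median was -0.11. Under that block the stratum intermedium values that changed sign were Cdkn1a 0.06, Ccnd1 0.14, Top2a -0.13, Cdk1 -0.15, Ccnb1 -0.23 and Mcm5 -0.24. With sex as a covariate the stratum intermedium medians were 0.59 for S phase and 0.9 for mitosis, Pcna was 0.3, and in ameloblasts Cdkn1a was -0.23, Mki67 0.26 and Mcm5 0.16. With the library group block, Pcna was 0.08 in the stratum intermedium, and in ameloblasts Cdkn1a was -0.1, Mki67 0.01, Mcm5 0.08 and Rrm2 0.05, and library weights gave Rrm2 0.05. KO replicate 3 has no WT library of its number, and KO1 has no other library of its group in the same layer. Differences under the replicate block therefore equal those without KO replicate 3, and under the library group block those without KO1. The cause of the other changes was not tested.

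Leaving out a library gave these ranges in ameloblasts: the S phase median -0.42 to 0.47, the mitosis median -0.51 to 0.82, Mcm4 -0.42 to 1.67, Tpx2 -0.08 to 2.1, Cdkn1c -1.77 to 0.52, Cdkn1a -0.82 to 0.97, Mki67 -0.82 to 0.01, Top2a -0.94 to 0.12, Cdk1 -0.98 to 2.07, Ccnb1 -0.2 to 1.5, Mcm2 -0.21 to 1.16, Mcm5 -0.93 to 0.27 and Rrm2 -0.34 to 0.05. In the stratum intermedium they were Mcm3 -0.16 to 1.86, Cdkn1c -0.22 to 1.41, Cdkn1a -0.34 to 0.06, Ccnd1 -0.38 to 0.14, Mki67 -0.02 to 0.84, Top2a -0.22 to 0.34, Cdk1 -0.15 to 0.45, Ccnb1 -0.44 to 0.73, Mcm5 -0.24 to 0.34 and Pcna -0.29 to 0.11. In the layer by genotype test they were the S phase median -0.54 to 0.32, the mitosis median -1.12 to 0.89, Cdkn1a -0.5 to 1.07, Top2a -1.27 to 0.33, Cdk1 -1.43 to 2.22, Ccnb1 -0.94 to 1.94, Mcm5 -1.19 to 0.4 and Pcna -0.5 to 0.18.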
